A study of Mus musculus with 21 samples.

Results

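The ileum and the colon of mice lacking the vitamin D receptor (VDR) in the intestinal epithelium were compared across all measured genes. The comparison took every ileum and every colon library labelled KO, 4 of each, so 8 of the 21 RNA-seq libraries of the series. Each of these libraries came from an untreated male C57BL6J mouse of the genotype Villin-CreERT2 VDR f/f, aged 9 weeks for replicate 1 and 11 weeks for replicates 2 to 4 in both segments. In this genotype a tamoxifen-dependent Cre recombinase under the villin promoter acts on a floxed Vdr gene in villus and crypt epithelium, while other cells keep their receptor. The remaining 13 libraries came from CDX2-VDR transgenic mice, which lack endogenous VDR and carry human VDR in the distal intestine. They were either uninjected (3 ileum, 4 colon) or treated (3 ileum, 3 colon). Treatment was 3 injections of 1 ng/g 1,25-dihydroxyvitamin D3 given 48, 24 and 6 h before the end. The uninjected mice were aged 9 or 10 weeks and the treated mice 9 weeks. Most KO libraries came from older mice, so genotype and age are partly mixed in comparisons of KO with transgenic mice. The labels name the tissue as intestinal epithelium and do not say whether ileum and colon came from the same animals, so p-values measure the spread between these samples. Values are FPKM (fragments normalised for gene length and library size), deposited in 1 table per segment and rescaled here to a common level.

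The ileum is the last segment of the small intestine. Its enterocytes carry brush border enzymes and carriers for sugars, peptides and lipids, and it is the site where bile acids and vitamin B12 are reclaimed, while Paneth cells at the crypt base secrete antimicrobial peptides. The colon receives what the ileum leaves: its epithelium recovers sodium, chloride and water, uses short-chain fatty acids made by bacteria as fuel, and is covered by mucus from abundant goblet cells. Vitamin D acts through VDR on calcium absorption genes such as Trpv6 (the apical calcium channel) and S100g (the calcium-binding protein calbindin-D9k).

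The libraries held between 28.1 M and 45.5 M reads, an estimate from the step sizes within the FPKM columns, and between 16010 and 17110 genes above 0. The first principal component held 71.2% of the variance and separated the segments. The second held 12.9% and set replicate 3 (-43.4 in ileum, -26.3 in colon) against replicate 4 (39.5 and 28.7) in both segments. What lies behind this shared axis was not tested. Library pairs correlated across genes with r between 0.940 and 0.984 within a segment and between 0.820 and 0.872 across segments. Colon KO 2 stood apart in pancreatic acinar genes: it held 6742 FPKM of the chymotrypsinogen gene Ctrb1, where the other 7 libraries held 0.549 to 110.0. Colon KO 3 was the highest colon library for several genes of the small intestine and Ileum KO 3 the highest ileum library for several genes of the colon. Over the 12 genes with the largest difference in favour of the ileum, named below, the level in Colon KO 3 had a median of 0.398% of the ileal mean, against 0.0796% to 0.204% in the other colon libraries. Over the 12 with the largest difference in favour of the colon, Ileum KO 3 had a median of 0.802% of the colonic mean, against 0.156% to 0.388% in the other ileum libraries.

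Vdr itself was read at 21.7, 22.1, 21.2 and 23.5 FPKM in Ileum KO 1 to 4 and at 20.9, 21.5, 18.8 and 19.2 FPKM in Colon KO 1 to 4 (chr15:97684856-97741061, mm9). The ranges overlapped and the log2 difference of 0.13 ± 0.0914 (SE) was not called (limma, Benjamini-Hochberg adjusted p = 0.306, exact two-sided permutation p = 0.057, n = 4 and 4). With values as deposited the difference was -0.11, and with libraries set to the same sum it was -0.48 (limma, adjusted p = 0.039). A value per gene sums over all exons and cell types, so it does not check the deletion of the floxed part.

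The filter, a mean of 1 FPKM or more over the 8 libraries, kept 12243 genes. Of these, 2030 (16.6%) were higher in ileum and 2026 (16.5%) higher in colon (limma on log2(FPKM + 0.5), Benjamini-Hochberg adjusted p under 0.05). At least 4-fold differences on that scale were called for 383 genes (3.13%) in favour of the ileum and 262 (2.14%) in favour of the colon. Without Colon KO 2 these counts were 1583, 1563, 374 and 262, without Colon KO 3 they were 1772, 1756, 372 and 267, and without Ileum KO 3 they were 2018, 1972, 391 and 255. The split of calls depended on the scaling: 1334 genes were higher in ileum and 3679 in colon with values as deposited, which moved the median of all genes to -0.24 on the log2 scale, and 817 and 6418 with the same sum per library, which moved it to -0.59. Differences below are relative to the median gene, which lay at -0.01. The counts of list members below stand against the shares of all genes, 16.6% higher in ileum and 16.5% higher in colon.

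**Figure D1:**
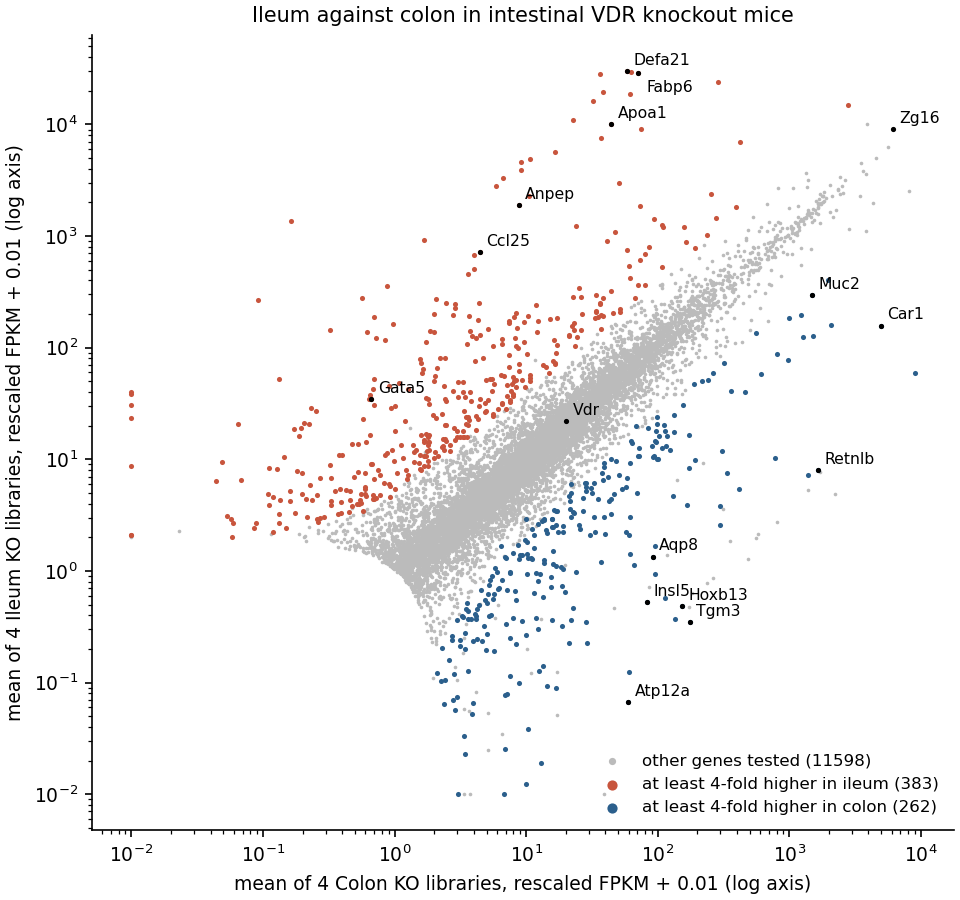
Mean rescaled FPKM of the 4 Colon KO libraries (x axis, log) against that of the 4 Ileum KO libraries (y axis, log), 1 point per gene tested, with 0.01 added for display. Red and blue points are the 383 and 262 genes called at least 4-fold higher in ileum and in colon, and black points are named genes; Defa21 and Fabp6 lie at the top, at 30137 and 28709.5 FPKM in ileum, while Vdr lies on the diagonal.

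Most genes of bile acid handling differed between the segments. Of 13 members tested, 8 were higher in ileum (16.6% of all genes were), 3 higher in colon (16.5% of all genes) and 2 not called, with a median log2 difference of 2.29. Fabp6, which encodes the bile acid binding protein of ileal enterocytes (chr11:43409551-43415042, mm9), was read at 29494, 31012, 39064 and 15268 FPKM in the ileum libraries and at 32.1, 43.6, 160.4 and 47.7 FPKM in the colon libraries. Every ileum library lay far above the highest colon library, Colon KO 3. The fitted difference was 470.4-fold on the scale of FPKM + 0.5, on which all fold differences are given (log2 8.88 ± 0.499 SE, limma, adjusted p = 1.89e-06). The basolateral exporter subunits Osta and Ostb were at 909 ± 211 and 1429 ± 363 FPKM in ileum (SD, n = 4) and at 41 ± 12.6 and 93.3 ± 26.6 FPKM in colon. Fgf15, the hormone by which the ileum lowers bile acid synthesis in the liver, was at 28, 17.3, 6.82 and 31 FPKM in ileum and did not exceed 0.165 FPKM in any colon library. Ileum KO 3 was the lowest of the ileum libraries for this gene. The apical exporter Abcc2 was 15-fold higher in ileum (log2 3.90 ± 0.167 SE, limma, adjusted p = 4.30e-07).

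The apical bile acid carrier gene Slc10a2 was higher in ileum in every library, with 135, 153, 149 and 188 FPKM in ileum against 23.5, 16.9, 21.3 and 27.8 FPKM in colon (6.9-fold, limma, adjusted p = 2.79e-06). The bile acid receptor gene Nr1h4 was at 97 ± 4.94 FPKM in ileum and 41.5 ± 5.35 FPKM in colon (SD, n = 4; 2.33-fold, limma, adjusted p = 4.70e-05). Abcc3, a basolateral organic anion exporter, went the other way, from 2.48 to 7.85 FPKM in ileum to 12.1 to 17.6 FPKM in colon (log2 -1.46 ± 0.321 SE, limma, adjusted p = 0.00708). These libraries are of mixed cells, and fewer cells of a type cannot be told apart from less RNA per cell.

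The bases before the start site of Slc10a2 are shown with those of Sis, the sucrase-isomaltase gene described next, and of Slc26a3, the chloride and bicarbonate exchanger gene of the colon, since the 3 genes mark the segments and their upstream bases hold letters that factors of the intestinal epithelium are known to bind. Each run is the 250 bases upstream in RefSeq (GRCm38.p6), 5′ to 3′ on the gene's strand. Capitals mark TTTATTG or TTTATGG (CDX factors) and GTTAATNAT (part of the HNF1 site) on either strand. The runs lie at chr8:5105288-5105537 (minus strand), chr3:72967864-72968113 (minus strand) and chr12:31437969-31438218 (plus strand).
Slc10a2: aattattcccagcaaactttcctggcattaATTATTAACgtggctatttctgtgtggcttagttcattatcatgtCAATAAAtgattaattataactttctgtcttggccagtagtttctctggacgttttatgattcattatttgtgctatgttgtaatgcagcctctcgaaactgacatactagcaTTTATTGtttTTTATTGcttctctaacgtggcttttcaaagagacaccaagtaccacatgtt
Sis: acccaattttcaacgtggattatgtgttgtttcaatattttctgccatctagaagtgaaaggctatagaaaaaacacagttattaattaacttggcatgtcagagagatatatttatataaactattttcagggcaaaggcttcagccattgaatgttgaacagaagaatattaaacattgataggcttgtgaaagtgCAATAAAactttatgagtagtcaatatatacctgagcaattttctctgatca
Slc26a3: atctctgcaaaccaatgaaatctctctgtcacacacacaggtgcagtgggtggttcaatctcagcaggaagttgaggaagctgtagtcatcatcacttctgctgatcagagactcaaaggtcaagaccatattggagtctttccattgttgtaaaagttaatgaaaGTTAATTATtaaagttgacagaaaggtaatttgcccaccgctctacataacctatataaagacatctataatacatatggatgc
The CDX letters were found in the run of Slc10a2 at 3 places and in that of Sis at 1, and the HNF1 letters in the ileal Slc10a2 and the colonic Slc26a3. Of 27025 genes with such a run in RefSeq, 7.55% held the CDX letters and 0.866% the HNF1 letters. Among the 8693 genes tested here that had such a run these shares were 5.11% and 0.529%. Of the genes with a run, the CDX letters were held by 9.02% (22 of 244) of those at least 4-fold higher in ileum. The share was 11.2% (19 of 170) for those at least 4-fold higher in colon. The HNF1 letters were held by 2.05% (5 of 244) and 0.588% (1 of 170). No matches overlapped, and a match describes letters only.

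Fat absorption genes differed in the same direction in most cases. Of 26 tested, 19 were higher in ileum, 2 higher in colon and 5 not called, with a median log2 difference of 3.51. Apoa1, an apolipoprotein of chylomicrons and high-density lipoprotein, was at 10276, 11704, 14355 and 3785 FPKM in ileum and 39.3, 17.1, 107 and 14 FPKM in colon. Npc1l1, the apical cholesterol carrier (chr11:6111016-6130146, mm9), was at 195, 202, 139 and 118 FPKM in ileum and 0.496, 0.476, 2.29 and 0.573 FPKM in colon, where Colon KO 3 was the highest. The groups did not overlap for either gene, with 278-fold (limma, adjusted p = 1.75e-05) and 123-fold differences (limma, adjusted p = 9.65e-07). Mttp, which loads lipid onto apolipoprotein B, was 86.5-fold higher, its partner Apob 16.7-fold and Mogat2, which rebuilds triglyceride, 49.2-fold higher in ileum. Fabp2, the intestinal fatty acid binding protein gene, remained at 268 to 651 FPKM in colon but was 16-fold higher in ileum. Apoc3 was read at 0 in Colon KO 2 and 4 and at 8.02 and 9.83 FPKM in Colon KO 1 and 3, against 35.2 to 194 FPKM in ileum (log2 5.65, limma, adjusted p = 0.00377). This difference was 6.29 and 6.38 without Colon KO 1 or 3 and 4.93 without either Colon KO 2 or 4.

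Apoa4, another apolipoprotein of chylomicrons, was at 138, 289.6, 145 and 88 FPKM in ileum and 7.73, 0.598, 82.7 and 0.717 FPKM in colon (log2 4.78 ± 1.24 SE, limma, adjusted p = 0.0157). Colon KO 3 came close to the lowest ileum library, and without it the difference was 6.08 on the log2 scale (limma, adjusted p = 0.00040), against 4.00 and 4.04 without Colon KO 2 or 4. Fabp1, the liver-type binding protein gene, was not called (limma, adjusted p = 0.0777) and its groups overlapped, with 0.258 to 27.5 FPKM in colon and 18.6 to 73.1 FPKM in ileum. It was called without Colon KO 1 or without Colon KO 3 (limma, adjusted p = 0.044 and 0.031). The 2 members higher in colon were Scarb1, a lipoprotein receptor, at 3.67 ± 0.51 against 9.55 ± 0.21 FPKM in colon (SD, n = 4), and Plin2, which coats lipid droplets, at 42.1 ± 10.4 against 75.8 ± 7.78 FPKM.

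Sugar digestion and uptake followed: of 16 genes tested 14 were higher in ileum, 1 higher in colon and 1 not called, with a median log2 difference of 2.85. Sis, the brush border sucrase-isomaltase (chr3:72692479-72771785, mm9), was at 238, 285, 246 and 235 FPKM in ileum and 1.95, 1.32, 3.47 and 3.08 FPKM in colon, 88.9-fold apart (limma, adjusted p = 1.86e-07). The sodium-glucose carrier Slc5a1 was 7.2-fold higher in ileum, and the colon held 36.7 to 53.3 FPKM of it. Treh (trehalase) was 52.9-fold, Khk, the first enzyme of fructose use, 16.3-fold and the carrier relative Slc5a4a 12.5-fold higher in ileum. Pck1, an enzyme of gluconeogenesis, was the member higher in colon, at 61.3 to 83.1 against 16.5 to 34 FPKM (log2 -1.47 ± 0.22 SE, limma, adjusted p = 0.000815).

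Peptide and amino acid uptake genes had 17 of 22 members higher in ileum, 4 higher in colon and 1 not called (median log2 difference 3.02). The brush border peptidases led: Anpep was at 1905 ± 274 FPKM in ileum and 8.73 ± 5.36 FPKM in colon (SD, n = 4), and Enpep at 453 ± 85.6 and 3.61 ± 0.749 FPKM. The differences were 229-fold and 110.5-fold, with no overlap (limma, adjusted p = 4.49e-07 and 4.04e-08). The neutral amino acid carrier Slc6a19 of the brush border was at 146, 179.9, 31.5 and 112 FPKM in ileum and at most 1.77 FPKM in colon. Ileum KO 3 was the lowest. The peptide carrier Slc15a1 differed by 5.02-fold and the aminopeptidase Xpnpep2 by 55.4-fold. In the opposite direction, Slc6a14, a carrier of neutral and cationic amino acids, was at 179, 161, 148 and 208 FPKM in colon and 5.1, 5.22, 2.06 and 20.9 FPKM in ileum, where Ileum KO 4 was the highest (log2 -4.74 ± 0.532 SE, limma, adjusted p = 0.000142). Slc36a1 and the glutamine carrier Slc1a5 were 2.91-fold and 2.07-fold higher in colon (limma, adjusted p = 0.00772 and 0.000691).

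The receptor for the vitamin B12 complex showed one of the tightest differences. Cubn, which encodes its large subunit cubilin (chr2:13197965-13413551, mm9), was at 40.4, 36.5, 35.9 and 38 FPKM in ileum and 0.612, 0.479, 0.623 and 0.864 FPKM in colon (33.6-fold, limma, adjusted p = 3.78e-08). Its membrane anchor Amn was 23.1-fold and the B12 carrier protein gene Tcn2 4.03-fold higher in ileum, whereas Cd320, the receptor that takes B12 into cells from blood, was 3-fold higher in colon (limma, adjusted p = 0.000852). Of 10 vitamin uptake genes tested, 6 were higher in ileum, 3 higher in colon and 1 not called.

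**Figure D2:**
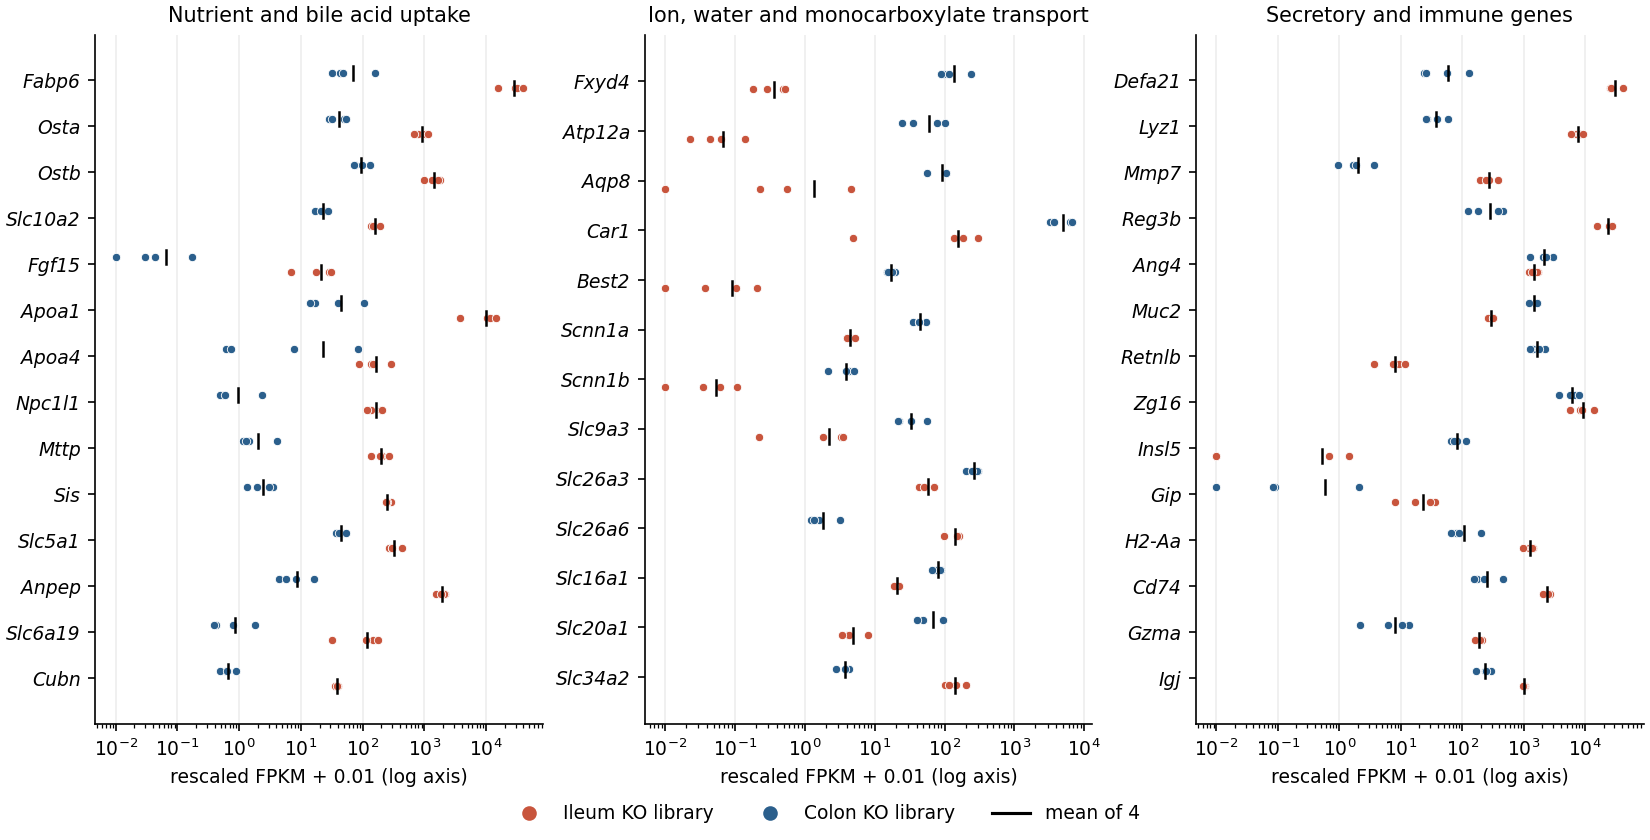
Rescaled FPKM of named genes (x axes, log, 0.01 added for display so that 0 plots at 0.01), 1 point per library, with the mean of 4 as a black bar; blue points above are Colon KO, red points below are Ileum KO. Uptake genes are higher in ileum, most ion transport genes higher in colon, and the ranges of Ang4 and Zg16 overlap between the segments.

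Ion and water transport genes of colonocytes leaned to the colon, with 18 of 32 tested higher there, 6 higher in ileum and 8 not called (median log2 difference -0.94). Fxyd4, a regulatory subunit of the sodium pump, was at 97.4, 238, 87.9 and 115 FPKM in colon and 0.278, 0.477, 0.507 and 0.173 FPKM in ileum. Atp12a, the proton-potassium pump of the colon, was at 24.9, 101, 35.2 and 78.4 FPKM in colon and at most 0.128 FPKM in ileum. No ileum library reached any colon library for these genes, which differed by 147-fold and 93.5-fold (limma, adjusted p = 3.93e-07 and 3.14e-06). The water channel gene Aqp8 (chr7:130605808-130611517, mm9) was at 100.4, 106, 106 and 56 FPKM in colon and 0, 0.555, 4.57 and 0.222 FPKM in ileum, so that Ileum KO 3 was the highest ileum library and Colon KO 4 the lowest colon library (log2 -6.25 ± 0.633 SE, limma, adjusted p = 7.46e-05; -6.96 without Ileum KO 3). The anion channel gene Best2 was at 16.9 ± 2.14 FPKM in colon and 0.0795 ± 0.0869 FPKM in ileum (SD, n = 4; limma, adjusted p = 1.09e-07).

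Car1, a carbonic anhydrase gene, was among the 5 highest genes of the colon at 6216, 3286, 6687 and 3708 FPKM. It was at 4.96, 138, 304 and 184 FPKM in ileum, where Ileum KO 1 lay far below the others (log2 -5.88 ± 1.1 SE, limma, adjusted p = 0.00303). Without Ileum KO 1 the difference was -4.58 (limma, adjusted p = 7.4e-05) and without Ileum KO 3 it was -6.51. Genes of sodium recovery were higher in colon: the epithelial channel subunits Scnn1a (9.02-fold) and Scnn1b (2.14 to 5.08 against 0 to 0.0961 FPKM in ileum), the sodium-proton exchanger Slc9a3 (13.9-fold) and Hsd11b2, the enzyme that shields the aldosterone receptor from glucocorticoid (10.2-fold). Slc26a3 was at 201 to 304 FPKM in colon and 42.8 to 71.2 FPKM in ileum (4.46-fold, limma, adjusted p = 4.68e-05). Its relative Slc26a6 was ileal, at 142 ± 29.2 against 1.84 ± 0.932 FPKM in colon (SD, n = 4).

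The guanylin peptides, which act on fluid secretion, were split. Uroguanylin (Guca2b) was 21.7-fold higher in ileum (limma, adjusted p = 0.00011), while guanylin (Guca2a) was at 1085 to 3103 FPKM in ileum and 2069 to 6759.8 FPKM in colon and was not called (limma, adjusted p = 0.0812; 0.00036 to 0.034 under the other scalings, all in favour of the colon). Guca2a was called, also in favour of the colon, without Colon KO 4 or without Ileum KO 3 (limma, adjusted p = 0.028 and 0.044).

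Short-chain fatty acid use had 10 of 16 genes higher in colon, 1 higher in ileum and 5 not called (median log2 difference -0.80). Acsm3, which activates medium-chain acids, was 9.45-fold, the monocarboxylate carrier Slc16a1 3.74-fold, Acss2, which activates acetate, 2.78-fold and the short-chain fatty acid receptor gene Ffar2 2.45-fold higher in colon. The lactate carrier Slc16a3 was the member higher in ileum (12.7 to 26.8 against 3.64 to 6.54 FPKM, limma, adjusted p = 0.000613).

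Of 10 phosphate and magnesium transport genes tested, 2 were higher in ileum (16.6% of all genes were), 4 higher in colon (16.5% of all genes) and 4 not called. The ileal count is near the share of all genes. With values as deposited 1 was higher in ileum and 5 in colon, and with the same sum per library 1 and 6. Slc34a2, the apical sodium-phosphate carrier, was at 204, 145, 102 and 114 FPKM in ileum and 3.95, 4.36, 3.76 and 2.75 FPKM in colon, and Slc20a1, a carrier of another family, at 3.42 to 8.06 FPKM in ileum and 40.5 to 93.8 FPKM in colon. The groups did not overlap for either (32.9-fold and 12.6-fold, limma, adjusted p = 4.90e-07 and 3.83e-05). The magnesium channel Trpm6 was 1.93-fold higher in colon. Among 19 genes of iron, zinc, copper and manganese, 7 were higher in ileum, 5 higher in colon and 7 not called, a split that became 6 and 7 with values as deposited and 2 and 10 with the same sum per library. The zinc carrier Slc30a2 was at 5.76 to 12.3 FPKM in ileum and listed at 0 in 3 of the 4 colon libraries, Slc39a4, the zinc importer, was 1.93-fold higher in ileum with overlapping groups, a call lost with values as deposited and with the same sum per library (limma, adjusted p = 0.055 and 0.13), and the iron exporter Slc40a1 was 3.3-fold higher in colon. Of 17 claudins and junction genes, 3 were higher in ileum, 3 higher in colon and 11 not called, with the pore-forming Cldn15 2.28-fold higher in ileum and the barrier claudin Cldn8 7.26-fold higher in colon. The share called was near the 33.1% of all genes. With values as deposited 1 of these 17 was higher in ileum and 6 in colon, and with the same sum per library 1 and 8.

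Of 20 calcium and vitamin D genes listed, 10 passed the filter, of which 1 was higher in ileum, 2 higher in colon and 7 not called. That share is near the 33.1% called among all genes, and with values as deposited 5, and with the same sum per library 7, were higher in colon and none in ileum. S100g (chrX:159399924-159402531, mm9) was at 24.4, 24.8, 33.1 and 21.9 FPKM in ileum and 42.1, 48.8, 91 and 49.3 FPKM in colon. Every colon library was above every ileum library, and Colon KO 3 was the highest (log2 -1.08 ± 0.238 SE, limma, adjusted p = 0.00709, exact two-sided permutation p = 0.029, the smallest that 4 against 4 allows). Without Colon KO 3 the difference was -0.85 (limma, adjusted p = 0.0047), and it was not called in a fit of all 21 libraries (limma, adjusted p = 0.44). Stc2, which encodes stanniocalcin 2, was 3.65-fold higher in colon (limma, adjusted p = 2.94e-05). The calcium pump gene Atp2b1 was at 46.4 to 64.5 FPKM in ileum and 35.8 to 43.7 FPKM in colon (log2 0.43 ± 0.132 SE, limma, adjusted p = 0.0332), a call lost when any library other than Ileum KO 1 or 2 was left out (limma, adjusted p from 0.054 to 0.11) and under each other scaling, where the same sum turned its sign.

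The submitters' protocol lists 6 genes measured by quantitative PCR, S100g among them. Slc37a2, a sugar phosphate carrier gene, was at 45.3, 43.2, 30.1 and 41.1 FPKM in colon and 0.698, 0.865, 5.02 and 1.92 FPKM in ileum, where Ileum KO 3 was the highest (log2 -4.21 ± 0.432 SE, limma, adjusted p = 8.01e-05, exact permutation p = 0.029). The zinc and manganese exporter gene Slc30a10 was at 7.64, 9.17, 7.52 and 8.3 FPKM in ileum and 11.3, 8.59, 10.8 and 10.5 FPKM in colon, overlapped, and was not called (log2 -0.32 ± 0.12 SE, limma, adjusted p = 0.0716, exact permutation p = 0.057); it was called, higher in colon, without Colon KO 2 (limma, adjusted p = 0.042), with values as deposited (0.0058) and with the same sum per library (0.0043). Trpv6 did not pass the filter, with 0.144, 0.107, 0.153 and 0.178 FPKM in ileum and 0.181, 0.639, 0.0829 and 0.54 FPKM in colon (exact permutation p = 0.26, n = 4 and 4). Trpv5, its close relative, was listed at 0 in the 8 libraries, and Cyp24a1, which degrades the vitamin D hormone, at 0 in 7 of them and at 0.0131 FPKM in Ileum KO 4.

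Paneth cell products gave the largest differences. The 12 genes with the largest difference in favour of the ileum all lay on chromosome 8 and included Defa-rs7, Gm15308, Defa21, Defa17, Gm15284, Defa5, Gm15315, Defa22, Gm14851, Defa3 and Defa26, alpha-defensins or their neighbours. Of 20 Paneth products tested, 15 were higher in ileum, 1 higher in colon and 4 not called, with a median log2 difference of 8.90. Defa21 (chr8:22165224-22166195, mm9) was at 27575, 25019, 41877 and 26078 FPKM in ileum and 23.6, 26, 128 and 55.6 FPKM in colon (636-fold, limma, adjusted p = 1.48e-06). Ileum KO 3 was the highest ileum library and Colon KO 3 the highest colon library. Defa22 gave nearly the same levels, 27709, 24672, 39260.5 and 27127 FPKM in ileum. Defa-rs7 was at 767 to 1854 FPKM in ileum and at most 0.345 FPKM in colon.

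Alpha-defensin genes are near-identical copies, so reads may be split or shared among them and their single levels are uncertain. Their upstream bases are shown for that reason: the 250 bases before Defa21 (chr8:21025295-21025544, GRCm38.p6, plus strand) are identical to those before Defa22, and those before Defa20 (chr8:21509008-21509257, plus strand) match at 245 of 250 positions. Capitals in the second run mark the positions that differ from the first. The runs come from RefSeq and read 5′ to 3′.
Defa21: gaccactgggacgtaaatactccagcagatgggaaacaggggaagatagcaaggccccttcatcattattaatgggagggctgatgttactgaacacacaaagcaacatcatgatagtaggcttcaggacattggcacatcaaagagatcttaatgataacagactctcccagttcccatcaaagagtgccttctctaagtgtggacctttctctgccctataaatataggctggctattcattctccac
Defa20: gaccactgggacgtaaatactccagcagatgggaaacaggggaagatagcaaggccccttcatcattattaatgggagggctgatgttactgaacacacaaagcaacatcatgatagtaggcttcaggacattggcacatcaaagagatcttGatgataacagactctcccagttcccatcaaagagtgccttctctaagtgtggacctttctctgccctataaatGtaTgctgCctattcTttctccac
Defa20 itself was at 15849.9 to 22034 FPKM in ileum and 13 to 136 FPKM in colon.

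Single-copy or better separated Paneth products gave the same direction. Lyz1, Paneth lysozyme, was at 6974, 5876, 8360.1 and 9261 FPKM in ileum and 27.1, 25.4, 57.6 and 39.3 FPKM in colon, and Mmp7, which activates defensins, at 192 to 387 and 0.935 to 3.71 FPKM. They were 209-fold and 113-fold higher in ileum (limma, adjusted p = 1.86e-07 and 6.79e-07). The lectin gene Itln1 was 58.1-fold higher. Ang4, an antimicrobial ribonuclease of Paneth and goblet cells, was an exception: 1718, 1225, 1633 and 1361 FPKM in ileum and 3001, 2034, 2294 and 1263 FPKM in colon overlapped and were not called (limma, adjusted p = 0.231). It was higher in colon without Colon KO 4, under quantile normalization and with the same sum per library (limma, adjusted p from 0.0016 to 0.050). Nupr1, a stress-response gene placed in that list, was 3.77-fold higher in colon. Of 7 Reg lectins, Reg3b, Reg3g and Reg3a were higher in ileum, Reg4 higher in colon and 3 not called. Reg3b was at 24598, 27231, 15742 and 27368 FPKM in ileum and 123, 467, 382 and 179.6 FPKM in colon (92.3-fold, limma, adjusted p = 5.38e-06), and Reg4 at 115 to 290.1 and 363 to 751 FPKM (limma, adjusted p = 0.00478).

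Goblet cell genes leaned to the colon, with 14 of 19 higher there, 2 higher in ileum and 3 not called (median log2 difference -1.38). Muc2, the main secreted mucin, was at 1623, 1509, 1625 and 1203 FPKM in colon and 296, 261, 319 and 313 FPKM in ileum (4.98-fold, limma, adjusted p = 6.13e-06). Retnlb, a secreted resistin-like protein (chr16:48816969-48819004, mm9), was at 2218, 1399, 1802 and 1245 FPKM in colon and 3.71, 9.23, 11.7 and 7.58 FPKM in ileum (204-fold, limma, adjusted p = 4.01e-07). Neither gene's groups overlapped. For Retnlb, among the 12 genes with the largest difference in favour of the colon, this was a condition of naming. The goblet cell regulators Atoh1 and Spdef were 2.6-fold and 4.48-fold higher in colon, and the membrane mucins Muc1 and Muc4 5.92-fold and 5.74-fold. The sialyltransferase gene St6galnac6 was at 298 ± 32.5 FPKM in colon against 3.82 ± 0.62 FPKM in ileum (SD, n = 4), and St3gal4 at 891 ± 187 FPKM in ileum against 163 ± 25.1 FPKM in colon. Zg16, a mucus lectin and one of the 5 highest genes of the colon, was at 5608 to 13747 FPKM in ileum and 3801 to 7942 FPKM in colon and was not called (limma, adjusted p = 0.285). Tff3, a trefoil peptide, was at 8347, 8931, 17252 and 5838 FPKM in ileum and 4071, 3929.6, 5042 and 2597 FPKM in colon (log2 1.29 ± 0.384 SE, limma, adjusted p = 0.0292). For Zg16 and Tff3 quantile normalization turned the direction (log2 -1.38 and -0.30), which for Zg16 was a call in favour of the colon (limma, adjusted p = 6.35e-06). The call of Tff3 was lost with values as deposited, without a filter and in the fit of all 21 libraries (limma, adjusted p = 0.058, 0.11 and 0.061), and without any one of Ileum KO 1, Ileum KO 2, Colon KO 1, Colon KO 2 and Colon KO 4 (limma, adjusted p from 0.059 to 0.075).

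Among 19 enteroendocrine genes 5 were higher in each segment and 9 were not called, where 16.6% of all genes were higher in ileum and 16.5% in colon. Insl5, a hormone of colonic L cells, was at 66, 113, 80.9 and 72.2 FPKM in colon and 0, 0.658, 1.41 and 0 FPKM in ileum (94.9-fold, limma, adjusted p = 4.20e-06). The incretin gene Gip was at 17.3, 36.2, 30 and 7.97 FPKM in ileum and 0.079, 0.0722, 2.11 and 0 FPKM in colon, with Colon KO 3 the highest colon library. Ghrl (ghrelin) and Nts (neurotensin) were 12.4-fold and 5.89-fold higher in ileum, while Tph1, the first enzyme of serotonin synthesis, and the granule protein gene Chga were 3.29-fold and 2.08-fold higher in colon. Gcg, the glucagon-like peptide gene, had near-equal means of 56.5 ± 5.8 FPKM in ileum and 56.2 ± 8.2 FPKM in colon (SD, n = 4; log2 0.01 ± 0.133 SE, limma, adjusted p = 0.95), and was lower in ileum with the same sum per library (log2 -0.61, limma, adjusted p = 0.0062). Pyy was not called either (limma, adjusted p = 0.318), but was higher in colon without Ileum KO 3 (limma, adjusted p = 0.044).

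Hox genes, whose order along a chromosome follows the order of their use along the body, separated the segments by cluster. Of 39 Hox genes 27 passed the filter, of which 18 were higher in colon, 3 higher in ileum and 6 not called (median log2 difference -1.48). Hoxb13 (chr11:96055630-96058761, mm9) was at 128, 219, 127 and 139 FPKM in colon and 0.127, 0.287, 1.38 and 0.104 FPKM in ileum (173-fold, limma, adjusted p = 7.62e-07). Colon KO 2 was the highest colon library and Ileum KO 3 the highest ileum library. Hoxa10 was at 21.1 ± 2.92 against 0.216 ± 0.122 FPKM in ileum (SD, n = 4), and Hoxa11 and Hoxa13 were at 6.87 to 12.2 and 9.15 to 15 FPKM in colon and listed at 0 in 3 of the 4 ileum libraries. Hoxd13 ranged more widely in colon, from 1.74 FPKM in Colon KO 3 to 19.2 FPKM in Colon KO 4 (log2 -3.97, limma, adjusted p = 0.000644; -4.59 without Colon KO 3). The transcript named Hoxa11as, antisense to Hoxa11 by its name, was at 51.5 to 77.8 FPKM in colon and at most 0.329 FPKM in ileum. Its span overlaps that of Hoxa11 in part (chr6:52194392-52199798 and chr6:52192107-52196213, mm9). Whether the counting used strand is not given in the sources used here. Reads of the shared stretch therefore cannot be told apart.

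The 3 Hox genes higher in ileum were Hoxc4, Hoxc6 and Hoxc8. Hoxc8 (chr15:102821053-102824698, mm9) was at 8.89, 7.67, 16.4 and 8.8 FPKM in ileum and 0.115, 0.15, 0.175 and 0.0994 FPKM in colon (16.5-fold, limma, adjusted p = 1.75e-06), and Hoxc6 at 6.06 to 7.71 and 0.0934 to 0.409 FPKM. In the Hoxb cluster Hoxb9 was 2.12-fold higher in colon, whereas Hoxb6, Hoxb7 and Hoxb8 were not called (limma, adjusted p = 0.0759, 0.499 and 0.0512); Hoxb8 was called, higher in colon, without Colon KO 2 or Ileum KO 4 (limma, adjusted p = 0.012 and 0.039). Hoxb6 and Hoxb8 were also called in favour of the colon with values as deposited (limma, adjusted p = 0.013 and 0.0094). Hox genes are used by muscle and connective tissue as well as epithelium. The summed level of 12 smooth muscle markers was 1443 to 2469.7 FPKM in ileum and 2480.0 to 3498 FPKM in colon, with none at 0, and its part in the Hox differences was not tested.

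**Figure D3:**
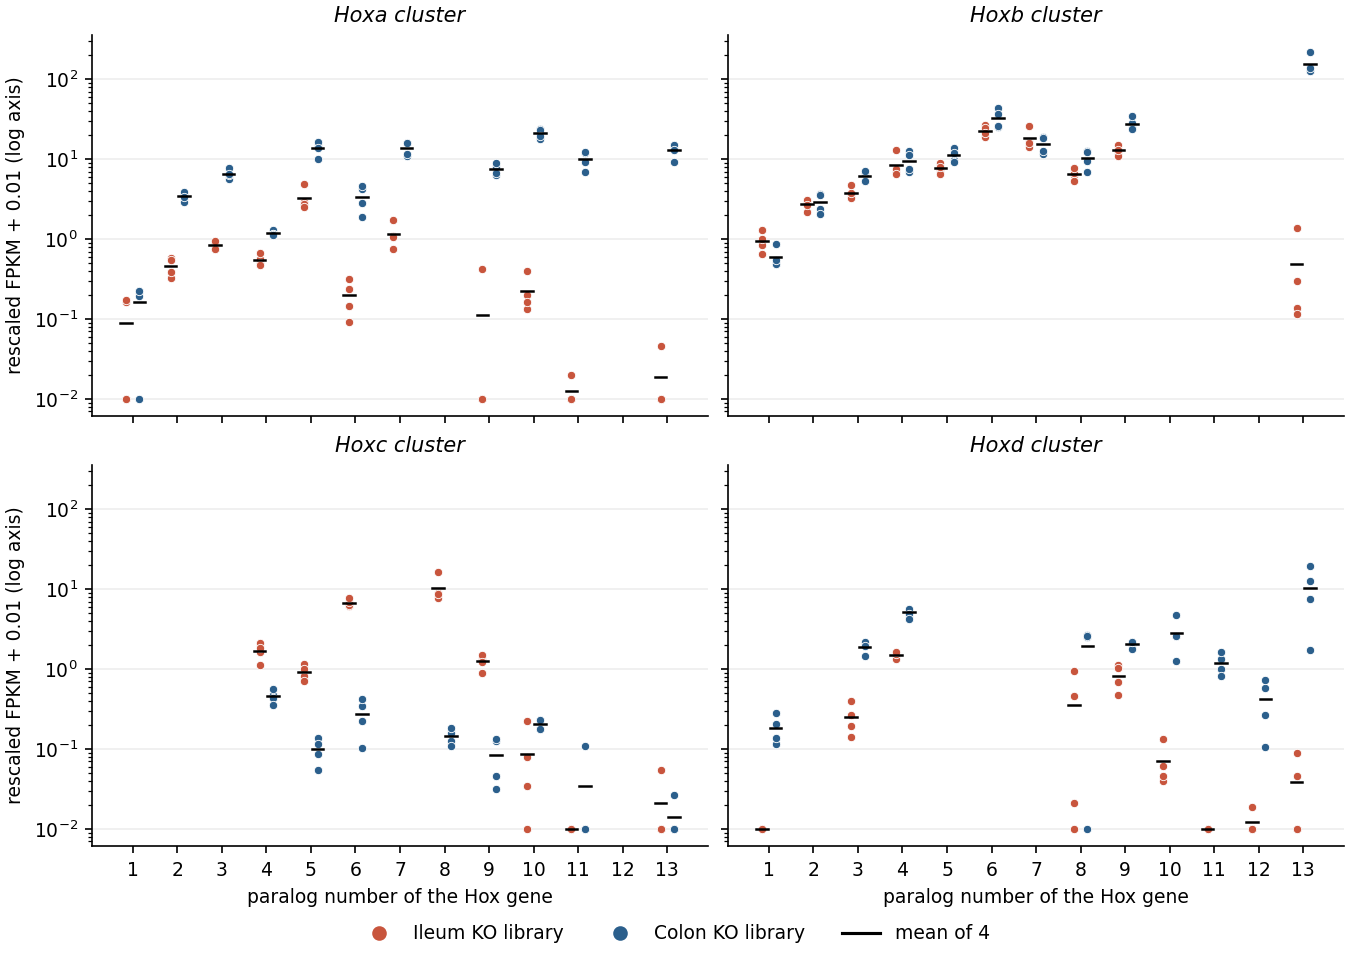
Rescaled FPKM (y axes, log, 0.01 added for display so that 0 plots at 0.01) of the genes of each Hox cluster by paralog number (x axes), 1 point per library and a black bar for the mean of 4. Blue Colon KO points exceed red Ileum KO points from Hoxa2 on, in most of the Hoxd cluster and at Hoxb13, overlap them in much of the Hoxb cluster, and lie below them from Hoxc4 to Hoxc9. Genes below the filter are drawn too, and not every difference was called. The Hox genes called higher in ileum were Hoxc4, Hoxc6 and Hoxc8.

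Transcription factors tied to segment identity were mixed, with 13 of 33 higher in ileum, 8 higher in colon and 12 not called. Gata5 was at 31.8, 39.1, 31.6 and 36.6 FPKM in ileum and 0.435, 0.608, 0.942 and 0.643 FPKM in colon, and Maf at 123 to 164 and 4.3 to 6.02 FPKM. Both sets of groups were far apart (30.7-fold and 26.6-fold, limma, adjusted p = 9.46e-08 and 5.64e-08). Gata4, which sets jejunal identity, was low even in ileum, at 1.42 to 5.23 FPKM, but above the 0 to 0.615 FPKM of colon (limma, adjusted p = 0.00259). Creb3l3, a regulator of lipid genes, Tbx3 and Hnf4g were 14.4-fold, 8.84-fold and 6.65-fold higher in ileum. In colon, Pparg was 4.26-fold, Foxa1 2.92-fold, Foxa3 2.19-fold, Sox9 1.89-fold and Cdx1 1.56-fold higher, the last a call lost without Ileum KO 2 (limma, adjusted p = 0.052). The intestinal master regulators Cdx2 and Hnf4a were not called: Cdx2 was at 152, 137, 141 and 124.6 FPKM in ileum and 137, 106, 166 and 91.8 FPKM in colon (limma, adjusted p = 0.501), and Hnf4a at 102 to 174 and 102 to 129.7 FPKM (limma, adjusted p = 0.145). Without Ileum KO 3, its lowest ileum library, Hnf4a was higher in ileum (log2 0.56, limma, adjusted p = 0.0096). With values as deposited, quantile normalization and the same sum per library the Cdx2 difference was -0.07, -0.07 and -0.45 on the log2 scale, the last a call in favour of the colon (limma, adjusted p = 0.030).

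Of 27 cytochromes P450 tested, 10 were higher in ileum, 8 higher in colon and 9 not called. Cyp3a11 and Cyp3a25, of the family that oxidizes bile acids and many drugs, were at 35.4 to 99 and 51.5 to 76.1 FPKM in ileum and 0.189 to 11.7 and 0.696 to 2.61 FPKM in colon (limma, adjusted p = 0.00247 and 3.25e-06). The Cyp3a11 difference of 4.94 on the log2 scale was 5.73 without Colon KO 3 and 4.35 without Colon KO 4. Cyp4v3, a fatty acid hydroxylase, was 15.4-fold higher in ileum. The colon was higher in Cyp2d34 (115, 148, 89.3 and 99.3 against 0.381, 0.649, 0.464 and 0.73 FPKM in ileum), in its neighbour Cyp2d10 and in Cyp2c55, which reached 1569 FPKM. Members of the Cyp2d family are close copies, so their single levels are uncertain. Of 40 conjugating enzymes and efflux carriers, 23 were higher in colon, 9 higher in ileum and 8 not called. The sulfotransferase Sult1a1 was at 242 to 382 FPKM in colon and 6.65 to 20.6 FPKM in ileum (27-fold, limma, adjusted p = 5.56e-06) and Ugt1a6a 17.2-fold higher in colon, while Sult2b1 and the carboxylesterase Ces2e were 5.28-fold and 4.93-fold higher in ileum.

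Among 18 retinoid genes 10 were higher in ileum, 3 higher in colon and 5 not called (6 and 6 called with the same sum per library), with the retinol binding protein gene Rbp2 6.54-fold higher in ileum and the alcohol dehydrogenase Adh1 12-fold higher in colon. Of 23 cholesterol synthesis genes 9 were higher in ileum, 1 higher in colon and 13 not called. Over all genes tested 16.6% were higher in ileum and 16.5% higher in colon. Sqle was 1.93-fold higher in ileum, a call lost with the same sum per library (limma, adjusted p = 0.29), under which the median of this list turned from 0.43 to -0.19. Stem cell and Wnt genes had 6 of 19 higher in ileum, 5 higher in colon and 8 not called. Wnt3, which Paneth cells secrete, was at 3.38, 2.22, 2.98 and 3.72 FPKM in ileum and at most 0.0739 FPKM in colon, the Wnt target Axin2 was 2.73-fold and the stem cell receptor Lgr5 2.45-fold higher in ileum, and Lrig1, an inhibitor of growth factor receptors, 2.08-fold higher in colon. Of 24 cell cycle genes 3 were higher in ileum, 1 higher in colon and 20 not called, where 33.1% of all genes were called. The medians of the stem cell, cell cycle, cytochrome, transcription factor and enteroendocrine lists, 0.04 to 0.33 on the log2 scale, also turned negative with the same sum per library (-0.29 to -0.44), so no direction is given for those lists.

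Genes of antigen presentation and of lymphocytes were higher in ileum. All 9 MHC class II genes tested were higher in ileum, with a median log2 difference of 3.37. Cd74, the chain that escorts class II molecules, was at 2706, 2324, 2532 and 2032 FPKM in ileum and 458, 175, 154 and 226 FPKM in colon, and H2-Aa at 972 to 1418 and 66.8 to 198 FPKM, with Colon KO 1 the highest colon library for each. The differences were 10.4-fold and 12.5-fold (limma, adjusted p = 5.03e-05 and 2.93e-05). All 15 T and NK cell markers tested and all 12 B and plasma cell markers were also higher in ileum, by medians of 2.50 and 1.92 on the log2 scale, with 13 of the 15 called with the same sum per library. Gzma, a granzyme of intraepithelial lymphocytes, was at 193, 212, 192 and 159.7 FPKM in ileum and 13.5, 2.16, 6.28 and 10.6 FPKM in colon. Cd3g, a chain of the T cell receptor complex, was 9.92-fold, Ccl5 12.8-fold, the B cell receptor gene Cd79a 5.82-fold and Igj, the joining chain of secreted antibody, 4.38-fold higher in ileum. The summed level of 18 T and NK markers was 506 to 586 FPKM in ileum, where 1 gene was at 0 in Ileum KO 3, and 20.1 to 82.2 FPKM in colon, with none at 0. Of 11 myeloid markers 8 were higher in ileum, among them C1qa (2.05-fold), and 1 higher in colon. With the same sum per library 3 of the 11 were higher in ileum, and the median fell from 0.82 to 0.23. MHC class II is carried by these immune cells and by ileal epithelium, and the part of the immune cells in its difference was not tested.

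Markers of other cells were present in both segments, although the labels name epithelium. Epithelial genes were high throughout: Epcam was at 1310.5 to 2009.7 FPKM in ileum and 873 to 1127 FPKM in colon. Villin (Vil1), whose promoter drives the Cre, was at 843, 1038, 697 and 736 FPKM in ileum and 209, 231, 233 and 224 FPKM in colon (3.65-fold, limma, adjusted p = 2.21e-05), and Krt20 and Cdh17 were 2.78-fold and 2.11-fold higher in ileum. The calls of Cdh17 and Epcam were lost with the same sum per library (limma, adjusted p = 0.16 and 0.17). Of 11 epithelial markers 4 were higher in ileum and 7 not called, with a median of 0.33 that turned negative with the same sum per library (-0.30) and quantile normalization (-0.59). Of 12 smooth muscle markers 7 were higher in colon, 1 higher in ileum and 4 not called, with Cnn1 and Tagln 2.49-fold and 2-fold higher in colon and Acta2 at 201 to 345 FPKM in ileum and 318 to 445 FPKM in colon, not called (limma, adjusted p = 0.0631) except without Ileum KO 3 (limma, adjusted p = 0.019) and, in favour of the colon, under each other scaling. Of 15 fibroblast and matrix markers 4 were higher in colon and 11 not called, including Col3a1 (2.07-fold) and Postn (3.24-fold) in colon. Enteric neuron and glia markers were higher in colon in 3 of 9 cases and endothelial markers in 1 of 8, with none higher in ileum. Of all genes tested 16.5% were higher in colon, so the endothelial count is no excess. With values as deposited the fibroblast count was 8 of 15 and the endothelial count 4 of 8, and with the same sum per library the fibroblast, endothelial and neuron and glia counts were 12 of 15, 5 of 8 and 6 of 10. The part of these cells in the differences between segments was not tested. Of 7 tuft cell genes 1 was higher in each segment and 5 not called, of 21 interferon-stimulated genes 2 were higher in ileum, 3 higher in colon and 16 not called, of 15 clock genes 1 was higher in ileum, 4 higher in colon and 10 not called, and of 6 liver and plasma protein genes 1 was higher in colon. The shares called in the tuft cell, interferon and clock lists lay near or below the 33.1% of all genes. With the same sum per library 1 interferon-stimulated gene was higher in ileum and 8 in colon, and 7 clock and 3 tuft cell genes were higher in colon with none in ileum.

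**Figure D4:**
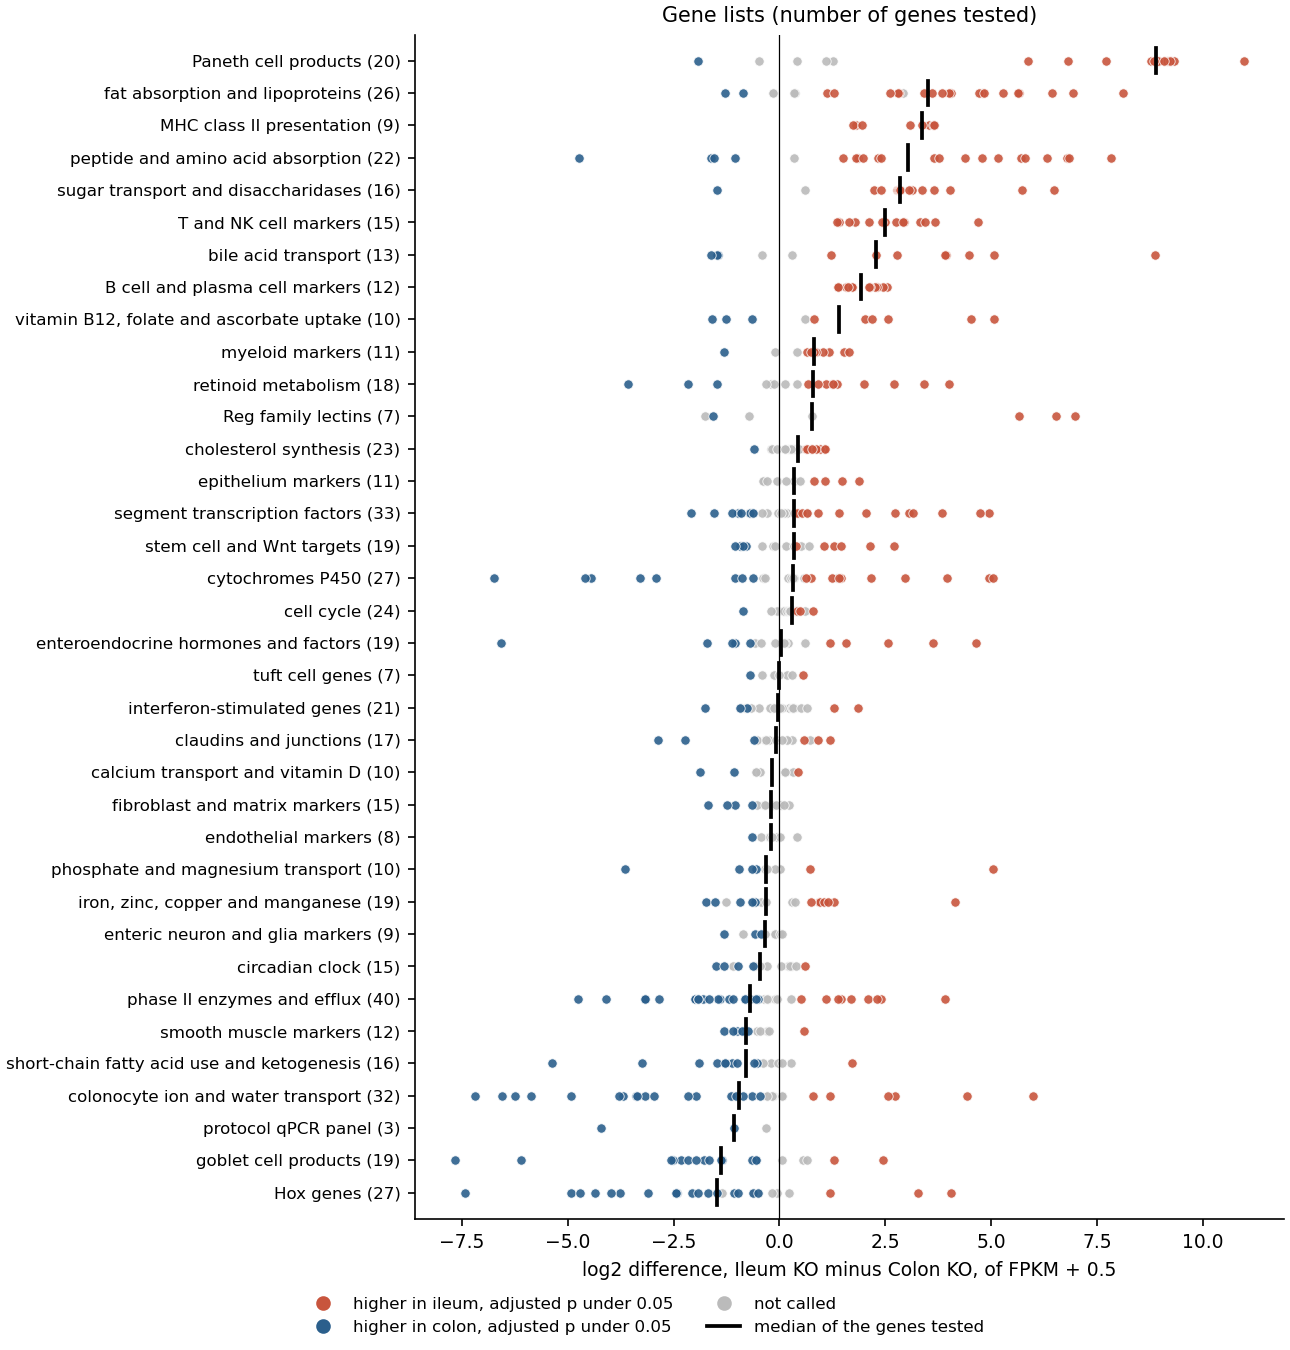
Log2 difference (Ileum KO minus Colon KO, x axis) of each tested gene of the gene lists other than the acinar and liver markers, ordered by their medians (black bars), with the number of genes tested in parentheses; red and blue points passed the test in favour of ileum and colon, grey points did not. Paneth products have a median of 8.90, uptake lists lie between 1.41 and 3.51, and Hox and goblet cell genes have the lowest medians at -1.48 and -1.38.

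The 12 largest differences in favour of the colon joined genes of several roles: Sycn, Tgm3, Retnlb, Hoxb13, 1810030J14Rik, Fxyd4, Wfdc2, Cyp2d34, Hoxa11as, Insl5, Atp12a and Aqp8. The transglutaminase gene Tgm3 (chr2:129838085-129876135, mm9) was at 168, 237, 106 and 195 FPKM in colon and 0.225, 0.277, 0.608 and 0.232 FPKM in ileum (207-fold, limma, adjusted p = 1.30e-07). Wfdc2, a small secreted protein gene, was at 245 to 369 FPKM in colon and 1.07 to 6.13 FPKM in ileum. No group overlapped for these genes. 1810030J14Rik had the highest mean of any gene in colon, 8965 ± 2197 FPKM (SD, n = 4), followed by 2210415F13Rik, Zg16, Rpl41 and Car1. In ileum the highest were Defa21, Defa22, Fabp6, Gm15308 and Reg3b. Rpl41, a ribosomal protein gene, was at 3081 to 8966 FPKM in ileum and 2849 to 7397 FPKM in colon and was not called (limma, adjusted p = 0.831).

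Sycn, which encodes the zymogen granule protein syncollin (chr7:29325904-29327229, mm9), was at 1363, 2380.2, 1094 and 743 FPKM in colon and 4.69, 4.46, 17.1 and 2.5 FPKM in ileum. All colon libraries exceeded all ileum libraries, which was a condition for the 12 genes above (210.0-fold, limma, adjusted p = 6.61e-06). Without Colon KO 2 the difference of Sycn was -7.42 on the log2 scale (limma, adjusted p = 3.2e-05). The elastase gene Cela1 was likewise at 172, 2578, 205 and 176 FPKM in colon and 12, 8.31, 14.4 and 6.08 FPKM in ileum (log2 -5.13, limma, adjusted p = 0.00113; -4.18 without Colon KO 2). The other acinar genes behaved differently: Cela2a was at 5.2, 5435, 91 and 1.68 FPKM in colon and 0.754 to 10.1 FPKM in ileum, Amy2a5 at 1.11, 8695, 135 and 5.48 and 0.0305 to 15.6 FPKM, and of 21 acinar genes tested Sycn and Cela1 were the 2 called. The summed level of 22 acinar markers, Sycn and Cela1 included, was 27.3 to 119 FPKM in ileum and 1565, 42548, 1887 and 939.9 FPKM in Colon KO 1 to 4. Without Sycn and Cela1 the other 20 summed to 14.8 to 87.1 FPKM in ileum and 29.4, 37590.0, 588 and 20.9 FPKM in Colon KO 1 to 4, so that 2 colon libraries, Colon KO 1 and 4, lay within the ileal range. The part of acinar RNA in these differences was not tested.

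The segment difference was also read in the transgenic mice, whose libraries share none with the KO mice. Of the 383 genes at least 4-fold higher in ileum in KO mice, 380 were tested in uninjected transgenic mice. All 380 had the same sign there and 297 (78.2%) were called in the same direction, which is 65.6% of the 453 genes (3.65% of those tested) called higher in that ileum. Of the 262 higher in KO colon, 256 were tested, 254 had the same sign and 164 (64.1%) were called, which is 75.9% of the 216 (1.74% of those tested) called higher in that colon. In treated transgenic mice the calls were 258 of 375 (68.8%) and 132 of 250 (52.8%), or 78.7% and 72.5% of the 328 (2.63%) and 182 genes (1.46%) called there.

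The test of the difference itself, segment difference in KO minus that in transgenic mice, called 1 of 12354 genes against uninjected mice (0.00809%, with 1.13% at an unadjusted p under 0.05) and 1 of 12381 against treated mice (0.00808%, with 3.69% at an unadjusted p under 0.05). The unadjusted shares lie below what a p of 0.05 gives by chance, so the test was cautious and genes not called may still differ. Both calls were Trpv6 (chr6:41570620-41586404, mm9), which passed the filter of 1 FPKM in these fits only through the transgenic colon. Its KO values lay near or below the 0.5 FPKM added before taking logs, so the size of its difference depends on that setting. On a scale common to all libraries it was at 361, 122, 217 and 72.2 FPKM in the uninjected colon and 1.8, 2.36 and 0.115 FPKM in the uninjected ileum. In treated mice it was at 203, 342 and 236 FPKM in colon and 1.11, 0.606 and 3.48 FPKM in ileum. The KO libraries of both segments lay below 1 FPKM, so the colon exceeded the ileum in transgenic mice and the ranges overlapped in KO mice. The difference between the segments was thus smaller in size in KO mice. As a signed value, ileum minus colon was higher in KO by 6.30 ± 0.728 (log2, SE) than in uninjected mice (limma, adjusted p = 0.0041) and by 6.69 ± 0.536 than in treated mice (limma, adjusted p = 8.2e-05). The call against uninjected mice was lost with a pseudocount of 0.1 (limma, adjusted p = 0.16).

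The KO libraries also lay below the transgenic ones for S100g in either segment, with 22.3 to 33.6 and 43 to 92.6 FPKM in KO ileum and colon against 495 to 6082 and 1785 to 25102 FPKM in uninjected mice. Its segment difference was not called as differing from that in transgenic mice (0.09 ± 1.12 on the log2 scale against uninjected and 2.82 ± 0.607 against treated mice, SE, limma, adjusted p = 1 and 0.323). For Slc37a2 every colon library lay above every ileum library within each of the 3 kinds of mice, with 7.96 to 157 against 0.809 to 1.6 FPKM in uninjected mice.

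**Figure D5:**
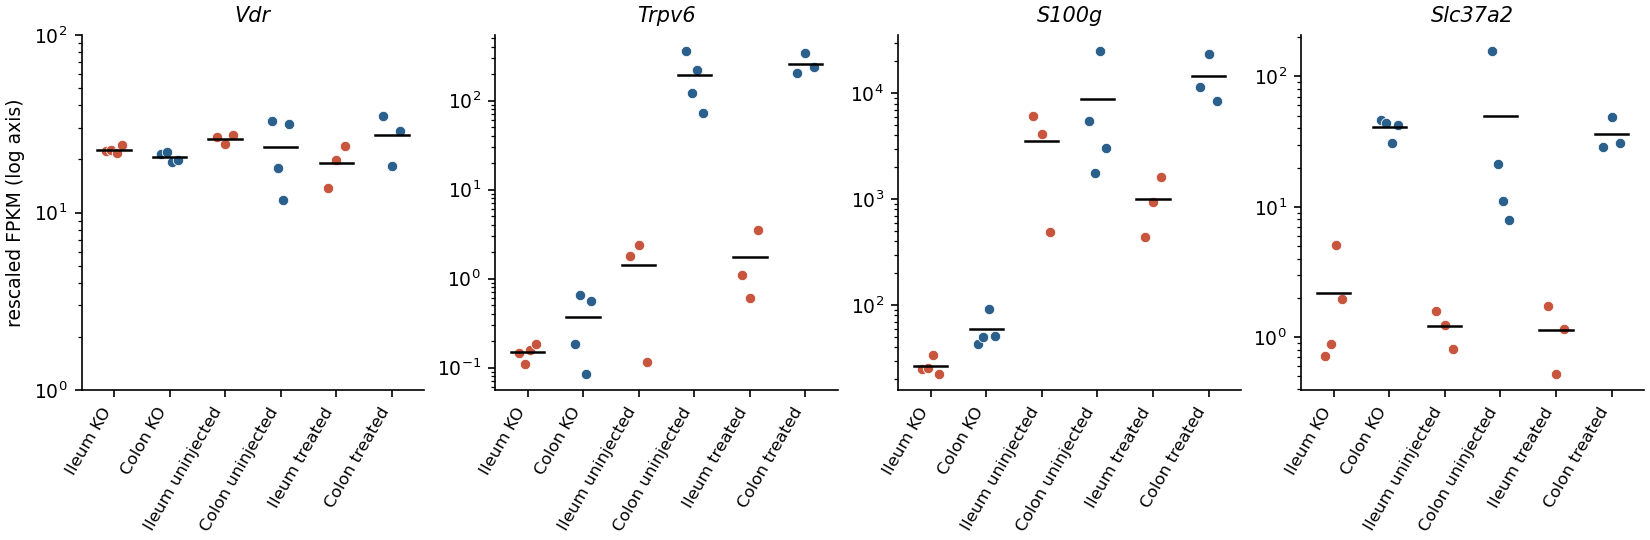
Rescaled FPKM (y axes, log) of Vdr, Trpv6, S100g and Slc37a2 in the 6 groups, 1 point per library with the group mean as a bar; red is ileum, blue is colon. Trpv6 is at 72.2 FPKM or more in the colon of transgenic mice and below 1 FPKM in KO mice, while Slc37a2 is higher in colon in each kind of mouse.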

How the data were processed

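RNA from tissue labelled intestinal epithelium was sequenced after poly(A) selection with NEBNext Ultra II, and CLC Genomics Workbench did the mapping, per the labels' protocols. In the submitters' processing notes stand the build mm9 and the tools kallisto 0.45.0, DESeq2 and DESeq 1.14.0, with no role given. The deposited values are FPKM per gene symbol, 21441 genes in 6 tables, each of which the authors scaled on its own: the same library differed between tables by 1 constant factor. KO libraries were taken from the tables that pair them with uninjected mice, joined by symbol and divided by median-of-ratios factors (0.896 to 0.934 for ileum, 1.09 for colon). Whole reads could be recovered for 14102 of 18252 genes (77.3%, tolerance 0.01), which gave the library totals and an alternative count-based fit.

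Genes whose mean reached 1 FPKM were fitted with limma 3.58.1 (R 4.3.3) on log2(FPKM + 0.5) with an intensity trend, Ileum KO against Colon KO, and p-values were Benjamini-Hochberg adjusted over all genes tested (threshold 0.05). Differences between genotypes used the same fit with a segment by genotype term. On simulated data for the KO comparison (12243 genes, 200 of them changed, 10 draws) the fit recovered 63.6% of 2-fold and 93.2% of 4-fold changes with a median of 7.5 false calls. In the KO libraries themselves 33.1% of genes were called and the counts changed with the scaling. Recovery under those conditions was not tested, nor was the number of false calls. Named were, by a fixed rule, the 12 largest non-overlapping differences in each direction, up to 5 called members of a list in each direction and 3 uncalled ones, the quantitative PCR panel, Vdr, and the 5 highest genes of each segment. The members and the 38 lists were chosen with earlier results of these data known. Of 755 list entries 744 were found, and 25 symbols that a spreadsheet had turned into dates were not named. Alternatives were other pseudocounts, filters and scalings, no trend, a replicate block, the other deposited tables, all 21 libraries, voom, and leaving out each library. Promoter runs were matched by symbol to RefSeq and searched on both strands. Python 3.11.15 was used for the remaining steps. Some results are not reported here.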

Additional observations from a re-analysis of the deposited data

Results flagged for a closer look

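Among 365 groups of 4 libraries examined for the genes named, 36 (9.86%) held 1 library far from the other 3 by Dixon's test. The 5% level of this test is for normally distributed values, while FPKM was used here without logs. Whether more libraries were flagged than that level gives was not tested. The flagged values lay in Ileum KO 3 in 11 cases, Ileum KO 4 in 5, Colon KO 1 in 2, Colon KO 2 in 6, Colon KO 3 in 10 and Colon KO 4 in 2.

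In Colon KO 3 most were genes of the small intestine. Fabp6 was at 160.4 FPKM there (the other colon libraries 32.1 to 47.7), Npc1l1 at 2.29 (0.476 to 0.573), Mttp at 4.15 (1.13 to 1.41) and Apoa4 at 82.7 (0.598 to 7.73). Treh was at 2.09 (0 to 0.345), Slc5a4a at 0.307 (0.0383 to 0.0701), Gip at 2.11 (0 to 0.079), Lgals2 at 21.3 (6.44 to 7.49) and Ada at 15.7 (3.68 to 5.22). S100g, higher in colon, was at 91.0 (42.1 to 49.3).

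Ileum KO 3 stood high for the colonic genes Aqp8 (4.57 FPKM, other ileum libraries 0 to 0.555), Hoxb13 (1.38, others 0.104 to 0.287), Tgm3 (0.608, others 0.225 to 0.277), Wfdc2 (6.13, others 1.07 to 1.82) and Sycn (17.1, others 2.5 to 4.69). It was also high for Defa21 (41876.6, others 25018.7 to 27574.6), Itln1 (4244.8, others 2503.2 to 2748.7), Foxa3 (19.4, others 13.7 to 14.1), Hoxc8 (16.4, others 7.67 to 8.89) and Amy2a5 (15.6, others 0.0305 to 2.68). Hnf4g was low there at 39.0 FPKM (others 67.4 to 70.4).

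Colon KO 2 stood high for the pancreatic genes Cela1 (2578.2 FPKM, other colon libraries 171.8 to 205.4), Cela2a (5435.1, others 1.68 to 91.0), Ctrb1 (6742.0, others 3.49 to 110.0) and Amy2a5 (8694.6, others 1.11 to 134.6). Hoxb13 was at 218.7 FPKM (127.0 to 139.2), and Slc30a2 at 0.157 where the others were listed at 0. In Colon KO 1, H2-Aa was at 198.3 FPKM (66.8 to 89.2) and H2-Ab1 at 188.9 (76.1 to 93.5).

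In Ileum KO 4, Slc6a14 was at 20.9 FPKM (2.06 to 5.22) and Tcn2 at 156.3 (223.5 to 226.8). Cyp24a1 at 0.0131, Hoxa13 at 0.0364 and Hoxa11 at 0.00975 FPKM were listed at 0 in the other ileum libraries. In Colon KO 4, Tcn2 was at 38.2 FPKM (54.8 to 57.1) and Aqp8 at 56.0 (100.4 to 105.8).

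The segment difference of Trpv6 differed between genotypes, by 6.30 on the log2 scale between KO and uninjected and by 6.69 between KO and treated transgenic mice (limma, adjusted p = 0.0041 and 8.2e-05). Trpv6 passed the filter in these fits only through the transgenic colon, and the sizes depend on the 0.5 FPKM added before taking logs. The call against uninjected mice was lost with a pseudocount of 0.1 and with a replicate block (limma, adjusted p = 0.16 and 0.059).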

How the results depend on the processing

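Counts of genes higher in ileum and in colon ranged from 1583 to 2264 and from 1563 to 2224 when 1 KO library was left out, and those at least 4-fold higher from 363 to 393 and from 254 to 285. They moved to 1334 and 3679 with values as deposited, to 817 and 6418 (at least 4-fold: 242 and 480) with the same sum per library, and to 949 and 879 in a fit of all 21 libraries. Of 163 called genes named in the text, 144 kept their call in each setting where they were tested, and the fit of all 21 libraries lost 18. With a replicate block the counts were 2792 and 2727, all 163 calls were kept, and 7 of 18 genes named as not called were called: Fabp1, Zg16 and Hnf4a, higher in ileum, and Guca2a, Hoxb6, Hoxb8 and Acta2, higher in colon (limma, adjusted p from 0.0018 to 0.047). Same-numbered libraries correlated at 0.0611, -0.143, 0.464 and 0.634 in their deviations from the group means. The values of replicates 3 and 4 were the highest of any ileum and colon pair, while replicates 1 and 2 correlated better with other numbers. Whether the numbers mark pairs was therefore not settled, and the main fit left them unpaired.

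Genes with a difference between genotypes numbered 0 with a pseudocount of 0.1, 2 with a pseudocount of 1 and 0 with a replicate block for uninjected mice, and 6 without a filter and 3 with the same sum per library for treated mice. Leaving out 1 library gave 1 to 3 and 1 to 4 of them, with 3 without 1 uninjected ileum library and 4 without 1 treated ileum library. The call of Trpv6 against uninjected mice was lost with the block (limma, adjusted p = 0.059).

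Signs turned with values as deposited for Vdr (-0.11), Gcg (-0.24), Cdx2 (-0.071), Hoxb7 (-0.023) and Rpl41 (-0.11). With the same sum per library they turned for Atp2b1 (-0.19), Vdr (-0.48), Zg16 (-0.070), Gcg (-0.61), Hnf4a (-0.25), Cdx2 (-0.45), Hoxb7 (-0.39) and Rpl41 (-0.49). Quantile normalization turned Tff3 (-0.30), Zg16 (-1.38), Gcg (-0.15), Cdx2 (-0.071) and Rpl41 (-1.41). With 1 library left out, Gcg ranged from -0.0593 to 0.0758 and Rpl41 from -0.16 to 0.45. The cause was not tested. The files give FPKM, so the read totals are estimates, and differences among genes near 1 FPKM rest on few reads.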

Other observations

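The genes in these paragraphs were chosen after their values were seen. The chemokine gene Ccl25, which draws lymphocytes to the small intestine, was at 654, 754, 922 and 523 FPKM in ileum and 4.31, 3.12, 6.77 and 3.58 FPKM in colon (147-fold, limma, adjusted p = 1.61e-07). No libraries overlapped, and Colon KO 3 was the highest colon library. The galectin gene Lgals2 was at 1808 to 3009.5 FPKM in ileum and 6.44 to 21.3 FPKM in colon, and Ada, which breaks down adenosine, at 68.8 to 237 and 3.68 to 15.7 FPKM. Alpi, the brush border alkaline phosphatase, was 18.4-fold higher in ileum (limma, adjusted p = 2.21e-05).

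On the colonic side, B3galt5, a galactosyltransferase gene, was at 90, 97.3, 91.9 and 105 FPKM in colon and 1.42, 2.23, 0.471 and 2.57 FPKM in ileum (limma, adjusted p = 2.02e-06). The tissue kallikrein gene Klk1 and the selenium binding protein gene Selenbp1 were 13.6-fold and 12.9-fold higher in colon. The gasdermin genes Gsdmc2 and Gsdmc4 were at 261 to 425 and 398 to 725 FPKM in colon against 32.8 to 44.6 and 43 to 68.1 FPKM in ileum. They are close copies, so their single levels are uncertain.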
